A study of Mus musculus with 6 samples.

Results

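Histone genes were described in MC3T3-E1 cells, pre-osteoblasts from mouse calvaria, on 6 Affymetrix arrays. The members were 31 of the 22180 genes measured. They were the genes whose probe set carried a single symbol beginning with H1f, H2ac, H2bc, H3c, H4c, H2az, H3f or an older Hist prefix. Histone genes with other symbols, such as H2ax, H2aj and H4f16, were not members. A gene with several such probe sets was represented by its brightest on average. All cells were grown to confluence and then held in osteogenic medium with ascorbic acid at 50 µg/ml and β-glycerophosphate at 10 mM. For 14 days, 3 samples also received NU7441 at 1 µM, which inhibits the catalytic subunit of the DNA-dependent protein kinase, and 3 samples received its solvent DMSO. The series concerns phosphorylation of alphaNAC by that kinase. The line is a single immortalised cell line, and the labels do not say whether replicates 1 to 3 were separate cultures, so the spread behind each p-value may be technical and no more than that of these samples.

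Histones package DNA into nucleosomes, which hold a pair each of H2A, H2B, H3 and H4, while H1 binds the linker DNA between them. Most histone genes lie in clusters, have no introns and are transcribed mainly in S phase, when new DNA needs new nucleosomes, and their messages end in a stem-loop, bound by Slbp, in place of a poly(A) tail. Replication-independent variants such as H2A.Z are made throughout the cell cycle from polyadenylated messages and replace the canonical histones at promoters and other sites. In osteoblast cultures, histone mRNA is a long-used sign of proliferation, which falls as the cells stop dividing and mature.

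Of the members 23 were replication-dependent, with 4 H1, 5 H2A, 7 H2B and 7 H4 genes. Another 3 were replication-independent, namely H2az1 and H2az2, which encode H2A.Z, and H1f10, the linker histone H1x. The remaining 5 are known mainly from germ cells, namely H2ac1 and H2bc1, the testis H2A and H2B, H1f6 and H1f7, linker histones of sperm development, and H1f8, the linker histone of the oocyte. No H3 gene had a probe set of its own. The histone clusters hold many near-identical genes, and 45 further probe sets listed several genes with a histone among them, so the value of any single canonical gene is uncertain to the extent that its probes also bind transcripts of its copies. Of the replication-dependent members 18 lie in the large cluster on chromosome 13 and 5 in the smaller one on chromosome 3 (GRCm38.p6).

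Promoter sequence was the first feature shared by the members beyond their symbols. RefSeq windows on GRCm38.p6, running from 250 bases before to 50 bases after the annotated start, were at hand for 29 of the 31 members, the others being H4c14 and H2bc21. A set of 5 motifs was searched on both strands, none of which contains another. The 250 bases before the start are shown for 6 members, chosen after their values were seen, namely a gene of each replication-dependent class, the testis gene H2ac1, whose upstream region is shared with H2bc1, and H2az1, which had the smallest p with NU7441. They are read 5′ to 3′ on the strand of the gene, from chr13:21780626-21780875 (minus strand) for H1f5, chr13:23533625-23533874 (plus) for H2ac10, chr13:22035571-22035820 (plus) for H2bc12, chr13:21750554-21750803 (minus) for H4c12, chr13:23934187-23934436 (plus) for H2ac1 and chr3:137864237-137864486 (plus) for H2az1. Capitals mark each match to one of the motifs, on either strand.
H1f5: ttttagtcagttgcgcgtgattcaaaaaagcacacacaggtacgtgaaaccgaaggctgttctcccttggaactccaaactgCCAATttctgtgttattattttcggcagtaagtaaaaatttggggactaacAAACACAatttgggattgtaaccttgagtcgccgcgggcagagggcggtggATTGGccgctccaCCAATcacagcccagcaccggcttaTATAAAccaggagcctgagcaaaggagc
H2ac10: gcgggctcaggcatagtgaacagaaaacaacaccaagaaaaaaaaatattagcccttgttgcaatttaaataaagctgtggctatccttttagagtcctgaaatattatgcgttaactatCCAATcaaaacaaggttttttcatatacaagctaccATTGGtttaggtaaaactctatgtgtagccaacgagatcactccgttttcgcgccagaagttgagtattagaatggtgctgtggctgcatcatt
H2bc12: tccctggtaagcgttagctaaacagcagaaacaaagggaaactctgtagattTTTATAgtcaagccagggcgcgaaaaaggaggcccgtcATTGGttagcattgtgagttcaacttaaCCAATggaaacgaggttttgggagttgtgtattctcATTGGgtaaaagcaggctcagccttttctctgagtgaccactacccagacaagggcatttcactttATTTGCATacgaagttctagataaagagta
H4c12: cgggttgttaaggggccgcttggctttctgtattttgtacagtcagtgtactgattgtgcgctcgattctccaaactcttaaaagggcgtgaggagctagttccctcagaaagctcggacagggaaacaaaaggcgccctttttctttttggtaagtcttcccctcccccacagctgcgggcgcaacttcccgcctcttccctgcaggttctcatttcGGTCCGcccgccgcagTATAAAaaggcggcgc
H2ac1: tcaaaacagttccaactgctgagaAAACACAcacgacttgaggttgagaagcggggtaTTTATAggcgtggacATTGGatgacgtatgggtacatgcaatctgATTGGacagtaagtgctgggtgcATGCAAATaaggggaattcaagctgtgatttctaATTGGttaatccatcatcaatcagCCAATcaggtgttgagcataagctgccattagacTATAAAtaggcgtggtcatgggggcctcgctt
H2az1: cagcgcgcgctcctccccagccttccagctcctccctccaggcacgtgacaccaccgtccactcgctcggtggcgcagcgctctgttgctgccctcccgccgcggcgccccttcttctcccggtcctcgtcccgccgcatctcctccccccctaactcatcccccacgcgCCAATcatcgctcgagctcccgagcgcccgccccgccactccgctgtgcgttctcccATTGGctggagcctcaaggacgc

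TATAAA, the letters of the TATA box, was in the windows of 14 of 21 replication-dependent members, or 66.7%, against 13.6% of all 32851 windows. Matches were counted at any position, numbered from the start site, and on either strand. In H1f1, H1f3, H1f5, H2ac20 and H2ac21 a match began between -42 and -26, in H4c12 at -16 and in H2bc3 at -10. In H2ac12, H2ac15 and H4c1 the match lay after the start, and in H4c17, H4c9, H2bc12 and H2bc22 at -128 or further upstream. CCAAT, the element bound by NF-Y, was in 16 of 21, or 76.2%, against 37.4% of all windows. It was in 4 of 4 H1, 5 of 5 H2A and 6 of 6 H2B windows but in 1 of 6 H4 windows. The octamer ATTTGCAT, bound by Oct-1 in H2B genes, was in 4 of 6 H2B windows against 1.74% of all windows, and also in 2 of 5 H2A and 2 of 5 germ-line windows. AAACACA, the H1 box, was in 3 of 4 H1 windows against 7.18% of all, and also in 3 of 5 germ-line windows, those of H1f6, H2ac1 and H2bc1, and in 1 of 6 H2B windows. GGTCCG, the core of an element of human H4 genes, was in 5 of 6 H4 windows against 8.25% of all, and also in 1 of 6 H2B windows and in 2 of 3 replication-independent ones, those of H1f10 and H2az2. In the sequence of H2az1 only CCAAT was found, in both orientations, and none of the 3 replication-independent windows held TATAAA. In H1f5 the H1 box began at base -117, CCAAT at -53 and TATAAA at -28, counted from the start site. Such matches describe the letters in these windows and were not tested as binding sites.

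Among the members with a window, the search also placed 2 pairs head to head with windows that overlap. H4c14 and H2bc21 had no window and could not be placed. H2bc21 (chr3:96221072-96223738) lies next to H2ac20 (chr3:96220413-96220880), so sharing of sequence between these genes was not examined. H2bc1 and H2ac1 start 281 bases apart on opposite strands of chromosome 13, and 220 bases were common to their windows. H2ac12 and H2bc12 start 178 bases apart, with 277 bases in common. The windows of each pair are therefore partly the same sequence and their motifs are not independent.

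The comparison of NU7441 with DMSO asks whether inhibiting the kinase alters the histone messages of differentiating osteoblasts. No histone gene passed the test. Limma called 0 of the 31 members at an adjusted p under 0.05, as it called 0.0% of all genes, the smallest adjusted p over all genes being 0.598. The differences ran from -0.40 for H1f1 to 0.23 for H2bc9 on the log2 scale, where 1 is a 2-fold change, with a median of 0.06 over all members and 0.00 over all genes. At an unadjusted p under 0.05, limma gave 2 members lower, H2az1 and H1f1, and 0 higher, while 3.3% of all genes were lower, 3.49% higher and 6.79% either at that level. The 95% interval lay within a 2-fold change for 29 of 31 members, the exceptions being H2ac1 and H2bc1, and for 99.2% of all genes. NU7441 values lay wholly above DMSO in 1 member, H2az2, and wholly below in 1, H2az1, beside 6.13% and 6.64% of all genes.

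**Figure D1:**
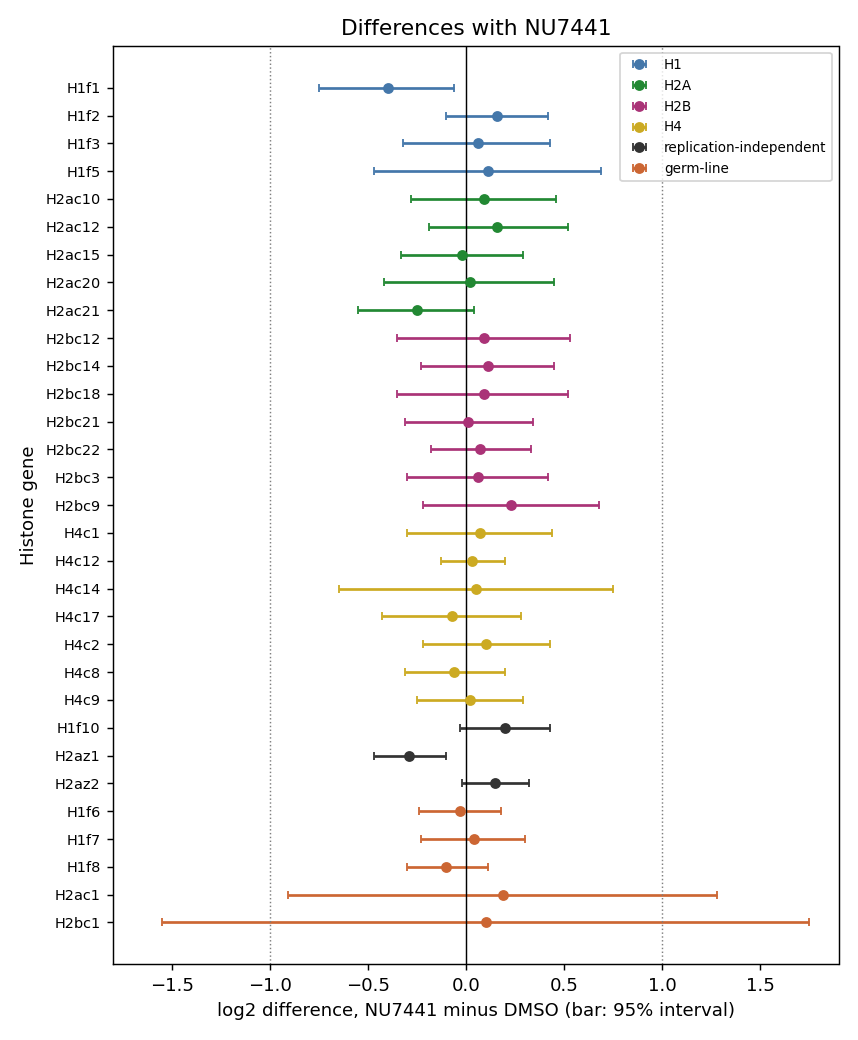
Log2 differences, NU7441 minus DMSO, of the 31 histone genes (points), with their 95% intervals from limma (bars), coloured by class; dotted lines mark a 2-fold change in either direction. The intervals of H2az1 and H1f1 lie below 0, those of H2ac1 and H2bc1 pass beyond a 2-fold change, and none passed the test after adjustment.

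The replication-independent genes held the only members whose groups did not overlap. H2az1 (chr3:137864487-137866922) encodes H2A.Z.1, the form needed for early mouse development. Its log2 values were 7.09, 7.05 and 7.20 in DMSO 1, 2 and 3 and 6.93, 6.80 and 6.75 in NU7441 1, 2 and 3. All 3 NU7441 arrays were below all 3 DMSO arrays, with means of 6.83 ± 0.09 and 7.11 ± 0.08 (SD, n = 3 each). The difference was -0.29 (SE 0.08), with a 95% interval of -0.47 to -0.10, an unadjusted p of 0.00784 and an adjusted p of 0.679 in limma. It did not pass the test, and it lay between -0.34 and -0.24 when each array was left out in turn.

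H2az2 (chr11:6427226-6444511) encodes H2A.Z.2, which differs from H2A.Z.1 in a few residues. Its values were 10.39, 10.37 and 10.37 in the DMSO arrays and 10.48, 10.45 and 10.64 in the NU7441 arrays. The NU7441 arrays were the higher, opposite in sign to H2az1, by 0.15 (SE 0.07; 95% interval -0.02 to 0.32; adjusted p = 0.764, limma). H1f10, the linker histone H1x, had 9.64, 9.79 and 9.89 in DMSO and 9.97, 9.83 and 10.11 in NU7441. Its groups overlapped, since NU7441 2 lay below DMSO 3, and its difference was 0.20 (SE 0.10; adjusted p = 0.768, limma). None of these genes passed the test.

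**Figure D2:**
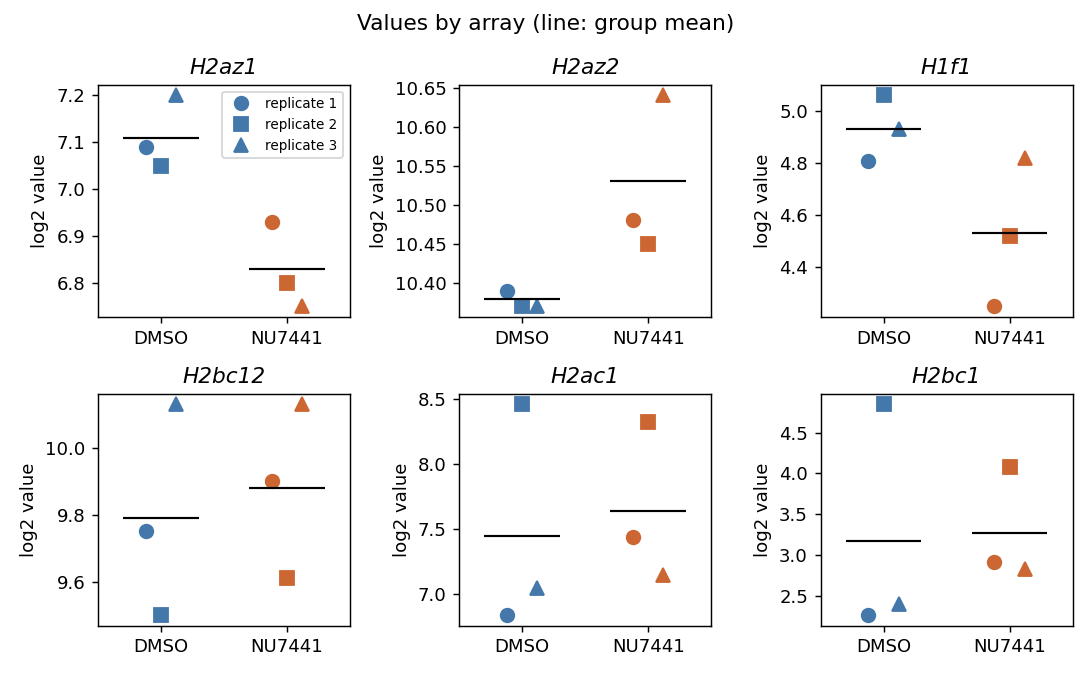
Log2 values by array of H2az1, H2az2, H1f1, H2bc12, H2ac1 and H2bc1 in DMSO (blue) and NU7441 (orange), with a symbol for each replicate number and a line at each group mean; each panel has its own axis range. Only H2az1 and H2az2 have groups that do not overlap, while H2bc12 is highest in array 3 and H2ac1 and H2bc1 are highest in array 2 of both groups.

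Among the linker histones of dividing cells, H1f1 (H1.1, chr13:23763668-23764412) had the largest difference of any member. Its values were 4.81, 5.06 and 4.93 in DMSO and 4.25, 4.52 and 4.82 in NU7441. NU7441 3 lay above DMSO 1, so the groups overlapped, and each NU7441 array was below the DMSO array of the same number. The difference was -0.40 (SE 0.15; 95% interval -0.75 to -0.06), with an unadjusted p of 0.028 and an adjusted p of 0.711 in limma. H1f1 was below the lower quartile of all probe sets on every array, the quartiles lying between 5.11 and 5.16, so it was a dim probe set.

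The other H1 genes were above the lower quartile on every array. H1f2 (H1.2) had 9.61, 9.84 and 9.57 in DMSO and 9.81, 9.70 and 10.01 in NU7441, a difference of 0.16 (SE 0.11). H1f5 (H1.5) had 9.43, 8.95 and 9.62 in DMSO and 9.40, 9.04 and 9.90 in NU7441, a difference of 0.11 (SE 0.25). H1f3 (H1.3) had 6.29, 6.32 and 6.73 against 6.30, 6.43 and 6.78, a difference of 0.06 (SE 0.16). In these 3 genes the groups overlapped. H1f5 and H1f3 were highest in array 3 of each group, and H1f5 was lowest in array 2 of each.

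The H2A genes, which encode a core histone of the nucleosome surface, had 3 members with a positive and 2 with a negative difference and a median of 0.02. H2ac21 had the smallest p of the class. Its values were 8.58, 8.51 and 8.80 in DMSO and 8.38, 8.16 and 8.57 in NU7441, each NU7441 array being below its same-numbered DMSO array and the groups overlapping. The difference was -0.25 (SE 0.12; adjusted p = 0.764, limma). With same-numbered arrays as pairs its unadjusted p was 0.0115 and its adjusted p 0.487 in limma. That fit gave 3 members an unadjusted p under 0.05, H2ac21, H2az1 and H1f1, beside 9.37% of all genes, and called 0 members. With a trend and a robust prior added to the pairs, limma called 0 members at an adjusted p under 0.05, beside 0.451% of all genes. A second probe set of H2ac21 ran the other way, with 4.51, 4.48 and 4.64 in DMSO and 4.66, 4.63 and 4.70 in NU7441.

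H2ac10 had 11.55, 11.12 and 11.60 in DMSO 1, 2 and 3, and the same-numbered NU7441 arrays differed from these by -0.01, 0.18 and 0.11. Array 2 was the lowest and array 3 the highest in both groups, and the group difference was 0.09 (SE 0.16). H2ac20 had 6.75, 6.53 and 6.78 in DMSO and 6.75, 6.30 and 7.05 in NU7441, in the same order. H2ac15 differed by -0.02 (SE 0.13). H2ac12, at 2.12 to 2.81, was below every array's lower quartile.

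All 7 H2B genes, the partners of H2A in the nucleosome dimer, had a positive difference in the deposited values, from 0.01 to 0.23 with a median of 0.09. None passed the test, and 6 of 7 stayed positive when each array was centred on its median or after quantile normalization. Without NU7441 3, 2 of 7 were positive and their median was -0.03. H2bc9 had 6.30, 5.70 and 6.36 in DMSO and 6.53, 6.11 and 6.40 in NU7441, a difference of 0.23 (SE 0.19; adjusted p = 0.848, limma). Without DMSO 2, its lowest array, that difference was 0.02, without NU7441 1 it was 0.14, and without DMSO 3 or NU7441 2 it was 0.35. H2bc12 had 9.75, 9.50 and 10.13 in DMSO and 9.90, 9.61 and 10.13 in NU7441. In both groups H2bc12 was lowest in array 2 and highest in array 3, a spread of 0.63 over the 6 arrays beside a group difference of 0.09 (SE 0.19).

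H2bc3, H2bc14 and H2bc18 followed the same order of arrays. H2bc18 had 8.56, 8.43 and 8.77 in DMSO and 8.61, 8.33 and 9.06 in NU7441. H2bc3 had 9.41, 9.22 and 9.71 in DMSO and 9.47, 9.31 and 9.73 in NU7441. H2bc14 had 5.70, 5.51 and 5.91 in DMSO and 5.78, 5.60 and 6.06 in NU7441. H2bc21, which encodes H2be, a variant described in olfactory neurons, did not, with 6.30, 6.58 and 6.57 in DMSO and 6.57, 6.69 and 6.22 in NU7441. H2bc22 differed by 0.07 (SE 0.11).

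The H4 genes, which all encode the same protein, had 5 positive and 2 negative differences and a median of 0.03. H4c12 had the smallest SD over the 6 arrays of all 31 members, 0.06. Its values were 12.50, 12.46 and 12.57 in DMSO and 12.56, 12.46 and 12.60 in NU7441, and the difference of 0.03 (SE 0.07) had an interval of -0.13 to 0.20. H4c14, in the chromosome 3 cluster, varied most in the class, with 6.71, 7.43 and 7.54 in DMSO 1, 2 and 3, from which the same-numbered NU7441 arrays differed by 0.29, -0.45 and 0.31. Its difference was 0.05 (SE 0.30). H4c17 differed by -0.07 (SE 0.15), H4c1 by 0.07 (SE 0.16) and H4c9 by 0.02 (SE 0.11), while H4c2 and H4c8, between 2.90 and 3.43, were below every array's lower quartile.

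Over the 23 replication-dependent genes, 18 differences were positive and 5 negative, with a median of 0.06. Of all genes, 11371 were positive and 10809 negative. That median was -0.06 without NU7441 3, where 7 were positive, and -0.02 with array weights, where 10 were, so its sign turned with these settings. The 18 genes on chromosome 13 had a median of 0.07 and the 5 on chromosome 3 a median of 0.02. At an unadjusted p under 0.05 limma gave 775 higher and 731 lower among all genes, and 549 higher and 931 lower after centring each array on its median, which moved the median of all genes from 0.004 to -0.018.

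Arrays of the same group also differed from each other. Array 3 was the highest of its group for most replication-dependent genes, 17 of 23 in DMSO and 19 of 23 in NU7441. Array 2 was the lowest for 16 of 23 in NU7441. In DMSO, array 2 was the lowest for 11 of 23 and array 1 for 9. The median deviation of the 23 genes from the gene mean was -0.06, -0.07 and 0.14 in DMSO 1, 2 and 3. In NU7441 1, 2 and 3 it was 0.02, -0.16 and 0.24. Array 3 was the highest of its group, in both groups, for 15 of 23 genes, or 65.2%, against 15.6% of all genes. Array 2 was the lowest in both groups for 11 of 23, or 47.8%, against 12.4%. Both held for 9 of 23, or 39.1%, against 4.38% of all genes. The pattern was noticed in these values, so the counts describe it and do not test it.

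**Figure D3:**
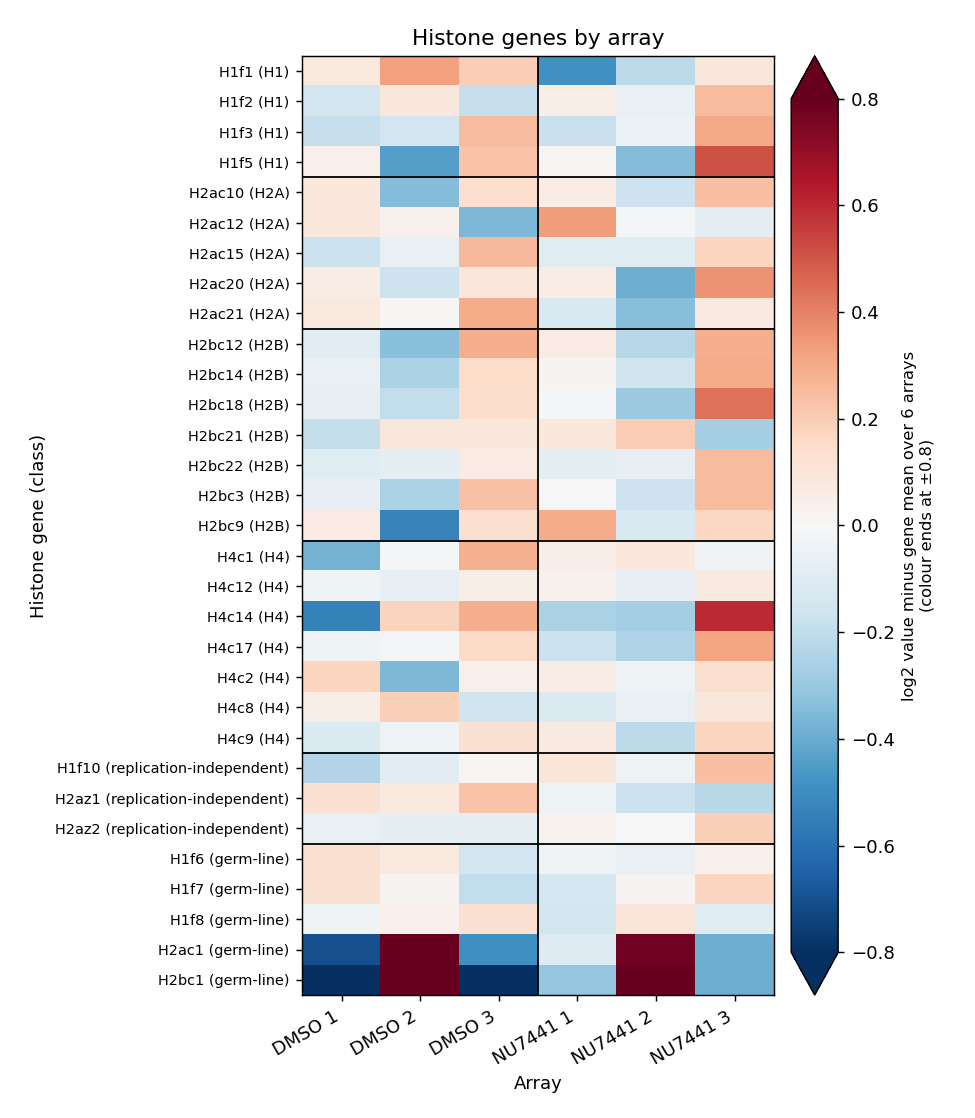
Log2 value of each of the 31 histone genes on each array minus that gene's mean over the 6 arrays, as colour, with genes grouped by class; colours end at ±0.8 and the values of H2ac1 and H2bc1 go past that end. Most replication-dependent genes are above their mean in NU7441 3 and below it in NU7441 2, and H2ac1 and H2bc1 run the other way.

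The replicate number was then tested as a term beside the treatment in limma, a test added after the values were seen. It called 0 of 31 members and 0.0% of all genes at an adjusted p under 0.05. At an unadjusted p under 0.05, 16 of 31 members differed by replicate number, beside 10.2% of all genes. By class these were 2 of 4 H1, 5 of 5 H2A, 5 of 7 H2B and 2 of 7 H4 genes, and 2 of the 5 germ-line genes. The test counts any order of the arrays. Among the H2A genes, the dim H2ac12 was lowest in array 3 of both groups. The smallest p-values among replication-dependent genes in limma were 0.00178 for H1f5, 0.00237 for H2bc12 and 0.0039 for H1f3. With an intensity trend and a robust prior, also added afterwards, limma called 6 members at an adjusted p under 0.05, namely H1f5, H2bc12, H2ac1, H2ac10, H2bc3 and H2bc1, beside 1.36% of all genes. Without NU7441 3, 9 members had an unadjusted p under 0.05, beside 6.68% of all genes. Among the upper 50% of genes by level 10 of 16 members did, beside 18.6% of the genes in that fit.

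Genes of the cell cycle differed between the same arrays, in part in the same order. In a list of genes for S phase and DNA replication, 29 of 32 were measured, and array 3 was the highest in both groups for 24 and array 2 the lowest for 26. Their mean level was 8.93, 8.57 and 9.03 in DMSO 1, 2 and 3 and 8.94, 8.75 and 9.12 in NU7441 1, 2 and 3. In a mitosis list, with 15 of 16 measured, the mean level was 10.03, 9.41 and 10.04 in DMSO and 9.93, 9.63 and 10.18 in NU7441, array 2 being lowest in both groups for all 15. Array 3 was the highest in both groups for 7 of these 15, and DMSO 1 was the highest DMSO array for 8. In DMSO 1 the median deviation was 0.16 for the mitosis and 0.04 for the S phase list, beside -0.06 for the histones. The replication-dependent histones shared the high array 3 and the low NU7441 2, but in DMSO 2 their median deviation was -0.07 beside -0.34 for the S phase and -0.46 for the mitosis list. Osteoblast markers, of which 7 of 8 were measured, were also highest in array 3 of both groups for 6 of 7, with mean levels from 9.69 to 10.69 in DMSO and from 10.21 to 11.02 in NU7441. The part of proliferation or maturation in the histone values was not tested. In bulk RNA, fewer cells in S phase and less histone RNA per cell cannot be told apart.

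**Figure D4:**
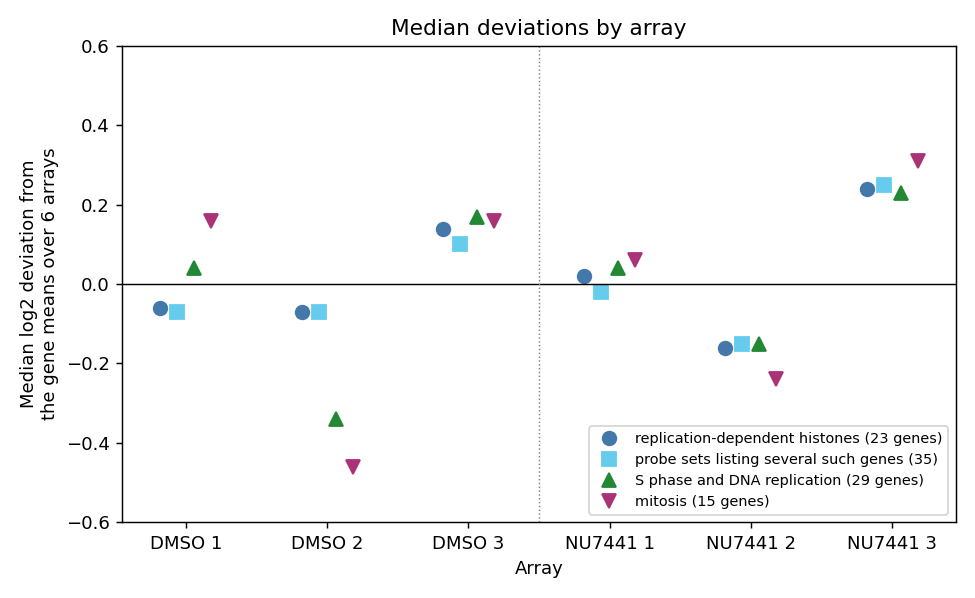
Median log2 deviation from the gene means over the 6 arrays, by array, for the replication-dependent histones, the probe sets listing several histone genes other than H3.3, the S phase list and the mitosis list. All 4 are above 0 in array 3 and below 0 in array 2 of both groups.

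With NU7441, the S phase list had 24 positive and 5 negative differences and a median of 0.07, and the mitosis list 14 positive and 1 negative and a median of 0.10. No gene of either list passed the test. Without DMSO 2 the medians were -0.036 for S phase and -0.116 for mitosis, without NU7441 3 they were -0.014 and -0.039, and with array weights -0.008 and -0.016. Their highest values were 0.189 and 0.25, without NU7441 2. With same-numbered arrays as pairs, 6 S phase genes and 0 mitosis genes were higher at an unadjusted p under 0.05 in limma. Of all 22180 genes, 1045 were higher at that level in the paired fit. None of the genes passed after adjustment. Slbp, the stem-loop binding protein that processes histone messages, had 9.33, 9.08 and 9.43 in DMSO and 9.31, 9.18 and 9.41 in NU7441. Slbp was lowest in array 2 and highest in array 3 of each group, and its difference was 0.02 (SE 0.11). Npat, the coactivator that links cyclin E to histone transcription, differed by 0.00 (SE 0.07). Over the list for histone transcription and message processing, with 20 of 21 measured, 12 differences were positive and 8 negative, the median was 0.01 and none passed. The histone chaperones, with 23 of 25 measured, had 11 positive and 12 negative differences, and none passed.

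Histone variants outside the member rule gave a similar picture, with 9 of 12 listed symbols measured, a median of 0.03 and none past the test. The symbols not found were H2bu2, H2afz and H2afv. H2afz and H2afv are older symbols of H2az1 and H2az2, which were measured as members. H2ax, whose protein the DNA-dependent protein kinase phosphorylates at DNA breaks, had 10.28, 9.95 and 10.24 in DMSO and 10.42, 10.03 and 10.62 in NU7441. The groups overlapped, array 2 was the lowest in both, and the difference was 0.20 (SE 0.16; adjusted p = 0.84, limma). It was 0.07 without NU7441 3, 0.10 without DMSO 2 and 0.36 without NU7441 2. Cenpa, the H3 variant of centromeres, had 9.72, 9.16 and 9.77 in DMSO and 9.75, 9.52 and 9.95 in NU7441, again lowest in array 2. H2aj, a polyadenylated H2A variant, had 8.02, 8.34 and 8.03 in DMSO and 7.87, 7.91 and 7.88 in NU7441. All 3 NU7441 arrays of H2aj were below all 3 DMSO arrays, by -0.24 (SE 0.10; unadjusted p = 0.0428 and adjusted p = 0.726, limma). H2al2a, a testis variant, was the other with an unadjusted p under 0.05, at 0.27 (SE 0.09; adjusted p = 0.698, limma). All 3 NU7441 arrays of H2al2a were above all 3 DMSO arrays. Of all genes, 6.79% had an unadjusted p under 0.05 in limma, and in 12.8% the groups did not overlap.

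The testis genes H2ac1 and H2bc1 had the widest spread of all members, and it followed the replicate number in another order. H2ac1 (chr13:23934437-23934913) had 6.84, 8.46 and 7.05 in DMSO and 7.44, 8.32 and 7.15 in NU7441. H2bc1 (chr13:23933725-23934156) had 2.26, 4.85 and 2.40 in DMSO and 2.91, 4.08 and 2.83 in NU7441. Both genes were highest in array 2 of both groups, where the S phase and mitosis lists were low. Array 2 was the lowest for 16 of 23 replication-dependent histones in NU7441 and for 11 of 23 in DMSO. The range over the 6 arrays was 1.62 for H2ac1 and 2.59 for H2bc1, on the log2 scale, although H2bc1 stayed below every array's lower quartile. The treatment differences were 0.19 (SE 0.47; 95% interval -0.91 to 1.28) and 0.10 (SE 0.70; 95% interval -1.55 to 1.75), so changes beyond 2-fold lay within the intervals of both. Without DMSO 2, the difference of H2bc1 was 0.94, and without DMSO 1 it was -0.35. The unadjusted p for the replicate number was 0.00158 for H2ac1 and 0.00494 for H2bc1 in limma. These 2 genes are the head-to-head pair whose promoter windows share 220 bases, in the sequence printed for H2ac1.

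The other germ-line genes varied less between arrays. H1f6 had 5.48, 5.44 and 5.21 in DMSO and 5.33, 5.30 and 5.40 in NU7441, H1f7 differed by 0.04 (SE 0.11) and H1f8 by -0.10 (SE 0.09). Their ranges over the 6 arrays were 0.27, 0.37 and 0.27. Only H2ac1 and H2bc1 of the 5 germ-line genes had an unadjusted p under 0.05 for the replicate number in limma.

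Probe sets that list several histone genes cannot be assigned to a member, but they cover the H3 genes and most copies. Of the 45, 42 held distinct values, and each listed between 2 and 13 genes. Tested among all 41345 probe sets, limma called 0 of them at an adjusted p under 0.05, beside 0.0% of all, and 1 had an unadjusted p under 0.05, beside 6.23% of all. That 1 listed genes of H3.3, the replication-independent H3, with 8.76, 8.90 and 8.74 in DMSO and 9.08, 9.09 and 8.93 in NU7441, a difference of 0.24 (unadjusted p = 0.0279 and adjusted p = 0.795, limma). All 3 NU7441 arrays were above the DMSO arrays there, while the 7 probe sets of H3.3 had a median of 0.00. The sets were sorted by the prefix of the symbols they listed, and all kinds but H3.3 were taken as replication-dependent. Those of H1, H2A or H2B may therefore also list replication-independent or germ-line genes. The 35 distinct sets of replication-dependent kinds, so defined, had 24 positive and 11 negative differences and a median of 0.06. The 12 sets of H3 had 8 positive and 4 negative with a median of 0.10, and the 5 sets of H4 had 1 positive and 4 negative with a median of -0.12. None of these 35 had an unadjusted p under 0.05.

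The order of arrays seen in the members was also present there. Array 3 was the highest in both groups for 22 of the 35, and array 2 the lowest for 14. Their median deviations were -0.07, -0.07 and 0.10 in DMSO 1, 2 and 3 and -0.02, -0.15 and 0.25 in NU7441 1, 2 and 3. These sets may bind the same transcripts as the members, so they are not independent of them. At an unadjusted p under 0.05, 11 of the 35 differed by replicate number in limma, beside 7.9% of all probe sets.

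The arrays as a whole were close, with medians between 6.38 and 6.42 and correlations between any pair of 0.989 to 0.993. All 7 osteoblast markers measured had a positive difference, with a median of 0.53 and none past the test. At an unadjusted p under 0.05 limma gave 1 of them higher, Alpl, beside 3.49% of all genes. With same-numbered arrays as pairs it gave 5 of 7 higher, namely Alpl, Phex, Ibsp, Sp7 and Bglap. In that paired fit 1045 of all 22180 genes were higher at that level, and 0 were past the adjusted threshold. Alpl, the bone alkaline phosphatase, differed by 0.48, 0.61 and 0.55 in pairs 1, 2 and 3 (unadjusted p = 0.000366 and adjusted p = 0.318 in the paired limma fit). Adipocyte, macrophage, endothelial and skeletal muscle markers, with 4, 5, 5 and 5 genes measured, gave 0 calls in limma. The mean levels of these 4 lists lay between 5.18 and 6.95 over the arrays. Fabp4, a fatty acid carrier of adipocytes, had the smallest p of these lists, at -0.99 (SE 0.19; unadjusted p = 0.00101 and adjusted p = 0.598, limma). The other 3 adipocyte markers had positive differences, 0.18 for Lpl, 0.13 for Plin1 and 0.08 for Adipoq, and the median of the 4 was 0.10. The part of these cell types in the histone values was not tested.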

How the data were processed

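Total RNA of whole MC3T3-E1 cells was hybridised with a biotin label, and RNA was purified on columns, per the labels' protocols. The deposited table holds log2 values, a scale read from their range. The steps by which the authors corrected, summarised and normalized them were not given in the sources used here. No further normalization was applied. How the RNA was primed is not stated either, which matters for histone messages without a poly(A) tail.

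Of 41345 probe sets, 23521 had 1 symbol in the platform annotation, 1814 several and 16010 none here. The Entrez number of 23328 was in the RefSeq gene table for GRCm38.p6. The probe set with the highest mean was kept for each of 22180 genes. Groups and replicate numbers came from the labels. Differences are NU7441 minus DMSO, tested in R 4.3.3 by the lmFit and eBayes functions of limma 3.58.1 (group only, two-sided, Benjamini-Hochberg over all genes, threshold 0.05), with the moderated SE and no filter on level. The fit was tested on simulated data of 22180 genes, with independent noise and 200 genes changed 2-fold in each of 3 draws. At least 96% of the changed genes were recovered. The simulated arrays shared no difference by replicate number, unlike the arrays here. That share is over all genes and does not hold for members with a wide spread, such as H2ac1 and H2bc1. Microarrays have no read depth, and the number of arrays, 3 per group, limits the precision.

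The members, classes and gene lists were chosen with earlier results of these data known. Genes named were, in each class, those with the smallest p and the widest spread, every H1 and replication-independent member, and up to 4 of each list with the smallest p, with Slbp, Npat, H2ax and Cenpa; the remaining members were named to account for all 31, after their values were seen. Alternatives were median centring, quantile normalization, the replicate block, a prior with intensity trend and robust fit, array weights, averaging the probe sets of a gene, filters keeping the upper 75% or 50% of genes, and each array left out in turn. The replicate number pairs the arrays by a check of the deviations from the group means, whose correlation was 0.149 to 0.339 for same-numbered and -0.246 to 0.094 for other arrays. No label gives this pairing, which rests on the values. The F-test of the replicate number and the replicate block with a trend and a robust prior were added after the data were seen. Motifs were searched with Python 3.11.15 in RefSeq windows of 27025 genes, and figures were drawn with matplotlib 3.10.9.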

Additional observations from a re-analysis of the deposited data

How the results depend on the processing

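No setting called a histone member against DMSO, with 0 under each alternative run and each array left out, the filters on level testing fewer than 31. With the replicate block, which pairs same-numbered arrays, 0 members were called, the median of the replication-dependent genes was 0.058, and 3 members were lower at an unadjusted p under 0.05 in limma, H2ac21 beside H2az1 and H1f1. The count of members higher at an unadjusted p under 0.05 was 0, and 1 with a trend and robust prior (H2az2), 2 after quantile normalization (H2az2 and H1f10), 2 with the replicate block, trend and robust prior together, and 0 to 1 leaving out an array. The count lower was 2, and 1 in the upper 75% and in the upper 50% of genes, and 1 to 4 leaving out an array, the 4 being without NU7441 3. Among all 22180 genes, 673 were higher and 753 lower at that level after quantile normalization. In the trend, filter and left-out-array fits against DMSO the share of all genes at that level was not counted. The member counts of those fits cannot be read against it. Leaving out an array moved the median of the replication-dependent genes between -0.056 and 0.149. For the replication-independent and germ-line genes together the median of 0.07 became 0.168 in the upper 50% of genes and lay between -0.083 and 0.144 leaving out an array. The list for histone transcription and processing had a median of 0.041 after quantile normalization and -0.021 to 0.024 leaving out an array, and the variants outside the rule 0.18 in the upper 50% of genes. For the replicate number, 10 members had an unadjusted p under 0.05 in the upper 50% of genes, which held 16 members, beside 18.6% of the genes there. Leaving out an array gave 9 to 15, the 9 being without NU7441 3, beside 6.68% of all genes. The share of all genes was not counted with another array left out. For the replicate number, limma called 6 members with a trend and robust prior, beside 1.36% of all genes. It called 3 of 16 in the upper 50% of genes (H1f5, H2bc12 and H2ac1). The share of genes called in that filtered fit was not counted, so the 3 cannot be read against it. Array weights turned the sign of small differences, to -0.01 for H1f3, -0.04 for H1f5, -0.08 for H2ac20, -0.02 for H2bc18, -0.04 for H4c14, 0.00 for Cenpf and -0.04 for Slbp. Quantile normalization gave -0.01 for H2ac20, and median centring -0.01 for H2ac20, -0.02 for Npat and 0.00 for Slbp. Leaving out an array turned signs in ranges of -0.08 to 0.20 for H1f3, -0.12 to 0.31 for H1f5, -0.11 to 0.02 for H1f6, -0.05 to 0.11 for H1f7, -0.16 to 0.69 for H2ac1, -0.06 to 0.20 for H2ac10, -0.16 to 0.22 for H2ac20, -0.35 to 0.94 for H2bc1, -0.02 to 0.21 for H2bc14, -0.11 to 0.26 for H2bc18, -0.03 to 0.13 for H2bc22, -0.10 to 0.24 for H4c1, -0.24 to 0.20 for H4c14, -0.25 to 0.03 for H4c17, -0.05 to 0.21 for H4c2, -0.15 to 0.03 for H4c8, -0.06 to 0.29 for Aurkb, -0.08 to 0.25 for Ccnb2, 0.00 to 0.32 for Cdc20, -0.01 to 0.30 for Cenpa, -0.09 to 0.27 for Cenpf, -0.04 to 0.04 for Npat and -0.08 to 0.09 for Slbp. The cause of these shifts was not tested, and with 3 arrays a group changes smaller than the stated intervals cannot be told from none.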
